A study of Mus musculus with 2 samples.

Results

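Mature B cells from the bone around the tooth sockets of mice (alveolar bone) are described here from single-cell RNA counts. A barcode was taken as a cell if it held at least 1000 unique molecular identifiers (UMIs, each a counted RNA molecule) over mouse genes and at most 20% of them were mitochondrial. A cell was taken as a mature B cell if it had at least 2 UMIs of Cd79a and Cd79b together, at least 1 UMI of Ighd, Fcer2a, Cr2 and Fcmr together, and no UMI of Rag1, Vpreb3, Igll1, Vpreb1a, Dntt or Cd3e. This rule found 461 mature B cells among 21809 cells, 223 of 9365 in library 1 and 238 of 12444 in library 2. The tissue came from healthy C57BL/6J mice aged 6 to 8 weeks and weighing 20 to 25 g, and 12 mice were divided at random between orthodontic tooth movement and control. In the tooth movement group a nickel-titanium coil spring between the upper right first molar and the incisors pulled the molar at a constant 25 g, while control mice had the spring attached and received no force. On day 7 the molar was extracted and bone within 1 mm of its socket was pooled from 6 mice of a group, digested for 60 min and freed of red cells by lysis. Neither library's label names its group, so they are called library 1 and library 2. Force was therefore not compared with control, and each library's values stand side by side. Pooling leaves no replicate of animals, so there is no test, and every interval below is a 95% interval for counting error only.

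B cells are made in bone marrow, where precursors rearrange first the heavy-chain and then the light-chain genes of the B-cell receptor with the help of the Rag proteins and a surrogate light chain. A cell that carries a complete IgM leaves for the spleen, gains IgD, the low-affinity IgE receptor Fcer2a (CD23) and the complement receptor Cr2 (CD21), and may return to the marrow as a recirculating mature cell. Mature B cells take up antigen through the receptor and present peptides of it to helper T cells on MHC class II molecules, and they find follicles and T-cell zones by chemokine receptors such as Cxcr5 and Ccr7.

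The mature B cells were compared with B-cell precursors of the same libraries. Late B precursors had at least 2 UMIs of Cd79a and Cd79b, a UMI of Rag1 or Vpreb3, and none of the mature genes, of the surrogate light-chain genes Igll1 and Vpreb1a, of Dntt or of Cd3e, which left 273 cells in library 1 and 579 in library 2. Early B precursors had the same Cd79a and Cd79b minimum, a UMI of Igll1, Vpreb1a or Dntt and none of the mature genes or of Cd3e, which left 189 and 188 cells. All 3 classes were chosen by measured UMI counts of these same cells, so the differences between the classes are descriptions and not tests of maturity. Stromal cells, used as cells that should lack B-cell genes, had at least 20 UMIs of Col1a1, Col1a2 and Col3a1, and T cells at least 2 of Cd3d, Cd3e and Cd3g, each with at most 1 UMI of Cd79a and Cd79b. Mature B cells had a median of 2037 and 2244 UMIs, with 1089 and 1164 genes. Late B precursors had 1936 and 1912 UMIs, and early B precursors were deeper, with 4424 and 4986.5 UMIs. Levels are given in CPM, the scale on which 10000 CPM of a gene is 1% of the UMIs summed over the cells of a class in 1 library. A gene is called higher or lower if its ratio was at least 2-fold in that direction in both libraries, with counts under 3 UMIs set to 3, among genes with at least 20 UMIs over both classes in each library.

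Mature B cells were 2.38% of the cells of library 1 (interval 2.08 to 2.71) and 1.91% of those of library 2 (1.68 to 2.17). Of the cells with at least 2 UMIs of Cd79a and Cd79b, 1045 in library 1 and 1720 in library 2, they made up 21.3% (interval 18.9 to 24.0) and 13.8% (12.2 to 15.6). The late precursors took 26.1% and 33.7% of the same cells, and the early precursors took 18.1% and 10.9%. A further 21.0% and 28.8% carried UMIs from the mature and from the precursor side at once and were left out of all 3 classes, and 12.8% and 12.3% carried neither. Of these cells, mature and early ones thus held smaller shares in library 2, while the intervals of mature cells as a share of all cells overlapped, and after thinning every cell to 1000 UMIs those shares were 1.51% and 1.47%. The intervals cover counting error within 2 single libraries and do not compare animals.

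**Figure D1:**
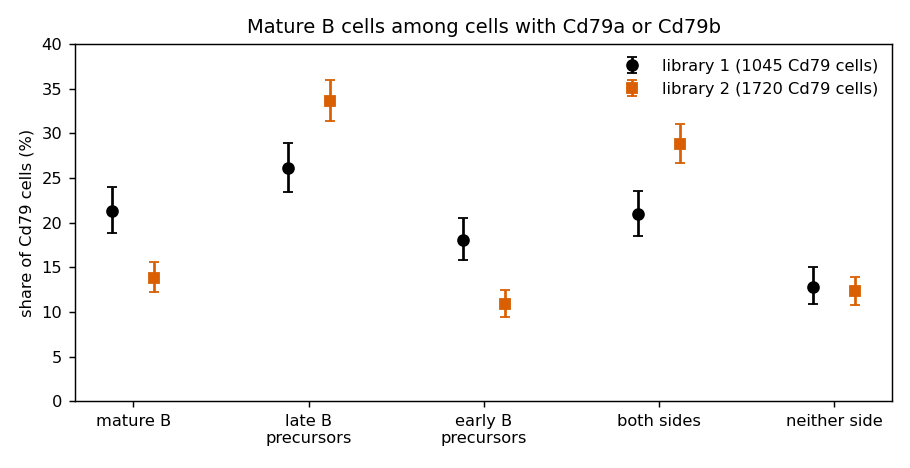
Share of mature B cells, of late and early B precursors, and of cells with genes of both sides or of neither, among cells with at least 2 UMIs of Cd79a and Cd79b (vertical axis, %). Black circles are library 1 and orange squares library 2, and the bars are exact 95% binomial intervals; mature B cells stand at 21.3% and 13.8%.

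The libraries held 77572847 and 116775367 UMIs of mouse genes. Of all cells, 75 had a barcode found in both libraries, where 65.9 would be shared if barcodes were drawn at random from all possible ones. No barcode was a mature B cell in both, and 4 mature B cells of library 1 and 1 of library 2 had a barcode that was some cell of the other library. Doublets were not removed by the rule, and the automatic threshold of the doublet caller Scrublet marked only 0 and 2 cells, so it had not worked. Deep barcodes, with over 10000 UMIs, numbered 5 in library 1 and 13 in library 2 among the mature B cells and held 11.4% and 32.8% of their UMIs. A barcode of library 2 stood apart. It had 17632 UMIs, 52.6% of them from immunoglobulin genes, with 892 UMIs of Jchain, the chain that joins IgM and IgA multimers in secreting cells, and it entered the class by 1 UMI of a mature gene. It alone held 61.1% of the immunoglobulin UMIs of the class in library 2, so levels of Ighm and Igkc are given with and without it.

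Of the label's 4 markers, Cd79a, Ighd and Fcer2a are part of the rule and only Ms4a1 (CD20) is independent of it. Ms4a1, a membrane protein of B cells from the late precursor stage on, stood at 631 CPM in library 1 and 752 CPM in library 2 in mature B cells, against 233 and 225 CPM in late precursors and 23.4 and 20.1 CPM in early precursors. It was seen in 53.4% and 66.0% of mature B cells, against 0.948% and 0.917% of stromal cells, which are deeper, with medians of 6697.5 and 5935 UMIs. With every cell thinned to 1000 UMIs the shares were 32.3% and 48.3% in mature B cells, against 16.8% and 18.0% in late precursors and 0.114% and 0.118% in stromal cells. The marker that the rule did not use was thus called higher than in late precursors. The call of Ms4a1 was lost by the mean of per-cell CPM, with a log2 ratio of 0.92 in the library nearer to 1, the value given for every lost call below.

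As a description of the choice itself, Ighd was seen in 77.6% and 61.3% of mature B cells, Fcmr, a receptor for IgM, in 49.8% and 68.9%, Fcer2a in 34.1% and 33.6%, and Cr2 in 7.17% and 7.56%. Cells that entered by a lone UMI of these genes numbered 41 (18.4%) in library 1 and 69 (29.0%) in library 2. Fcmr was the only one of the 4 genes seen in 9.42% of the class in library 1 and 26.1% in library 2, and Ighd the only one in 28.7% and 17.2%. Cells that entered by a lone UMI stood further from the rest in library 2. There, the cells with 1 UMI had 2676 CPM of Cd74, against 10696 CPM in cells with 2 or more. In library 1 the same values were 8002 and 10046 CPM. Of the 13 deep barcodes of library 2, 9 had 1 UMI.

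At the outer edge of the rule, 42 and 95 cells with 1 UMI of Vpreb3 or Rag1 were left out although they had the mature genes. Their Ms4a1 stood at 953 and 961 CPM and their Cd74 at 6245 and 7758 CPM, beside 631 and 752 CPM and 9661 and 7506 CPM in the class. Cells with 2 UMIs of Cd79a and Cd79b, just inside, had 8992 and 3730 CPM of Cd74, against 2140 and 4211 CPM in cells with 1 UMI, just outside. Cells without a UMI of the mature genes, and with none of the precursor genes, had 1405 and 966 CPM of Cd74. The UMI minimum had few cells near it, with 5 and 7 mature B cells less than 100 UMIs above it and 6 and 4 barcodes that met the other conditions within 100 UMIs below it.

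Genes of the MHC class II pathway were higher in mature B cells than in late precursors as a group. Of the 12 genes listed, 10 were called higher and none lower, where 2.02% of the 7906 genes tested were called higher and 3.54% lower. The median log2 ratio of the list was 2.74 in library 1 and 2.62 in library 2, beside -0.05 and -0.05 for all genes tested. Against early precursors 11 of the 12 were called higher, where 3.95% of 8389 genes were called higher and 7.82% lower. The list's median log2 ratio was then 4.56 and 3.30, beside -0.02 and -0.13 for all genes.

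The peptide-binding chains come first. H2-Aa, the alpha chain of I-A, stood at 3276 and 1998 CPM in mature B cells, against 234 and 128 CPM in late precursors and 48.6 and 69.4 CPM in early precursors. The ratios to late precursors were 14.0 (12.1 to 16.2) and 15.7 (13.7 to 17.9). The 3 stages were ordered alike in both libraries, and no interval of one stage reached the next. H2-Aa was seen in 87.9% and 70.2% of mature B cells, and in 13.6% and 6.75% of the deeper stromal cells. Thinned to 1000 UMIs, the shares were 84.3% and 60.9% in mature B cells, against 11.4% and 9.84% in late precursors and 2.62% and 1.54% in stromal cells. Its partner H2-Ab1, the beta chain of I-A, stood at 2400 and 1416 CPM against 188 and 142 CPM in late precursors. H2-Eb1, the beta chain of I-E, stood at 1744 and 1257 CPM against 152 and 71.6 CPM. H2-Eb2, a further class II beta gene that was not in the list, was among the 15 genes of highest ratio, with 106 and 54.6 CPM against 8.09 and 1.5 CPM. Only 3 UMIs stand behind the last of these values, and its ratio of 36.4 in library 2 has an interval of 11.7 to 183.

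The chaperones of the pathway were higher along with the chains. Cd74, the invariant chain that blocks the groove until the endosome, stood at 9661 and 7506 CPM in mature B cells, against 1498 and 1318 CPM in late precursors and 238 and 275 CPM in early precursors. The ratios to late precursors were 6.45 (6.07 to 6.86) and 5.69 (5.44 to 5.96). H2-DMa, H2-DMb1 and H2-DMb2 form the H2-DM exchangers that load peptides, and all 3 were called higher, with H2-DMb2 at 318 and 217 CPM against 19.6 and 19.0 CPM. H2-Oa and H2-Ob form H2-O, which holds H2-DM back. H2-Ob stood at 345 and 196 CPM against 62.4 and 64.6 CPM, and H2-Oa at 76.0 and 69.7 CPM against 8.09 and 10.5 CPM. Both parts of this brake were thus called higher along with the exchangers. Ciita, the co-activator that drives class II transcription, stood at 63.6 and 46.5 CPM against 9.24 and 6.01 CPM. The proteolytic side differed: Ctss (cathepsin S), which trims the invariant chain, reached ratios of 1.90 and 1.93, under the 2-fold limit, and Ifi30, a thiol reductase of endosomes, had 0.95 and 1.02.

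**Figure D2:**
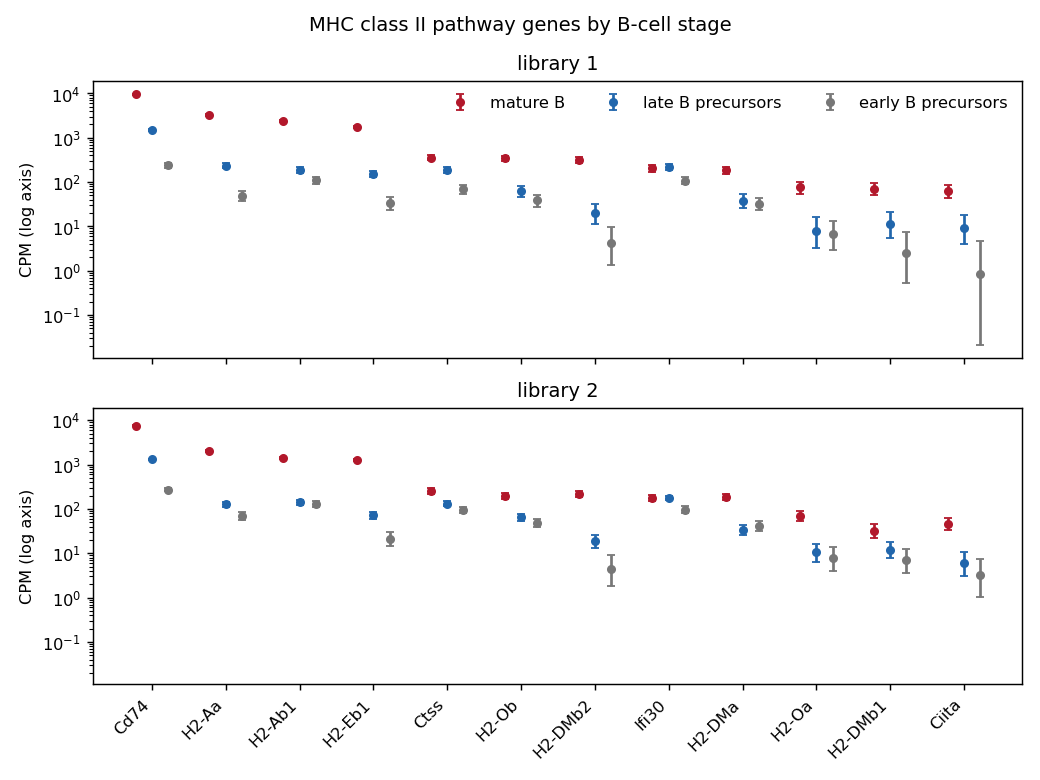
Level of the 12 MHC class II pathway genes (vertical axis, CPM, logarithmic) in mature B cells (red), late B precursors (blue) and early B precursors (grey), with library 1 above and library 2 below. Bars are exact 95% Poisson intervals of the summed UMIs; Cd74 stands at 9661 and 7506 CPM in mature B cells, and Ctss and Ifi30 are the genes whose red and blue points lie closest.

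Per cell, the 12 genes made up a median of 2.16% of the UMIs of a mature B cell in library 1, with quartiles of 1.31 and 3.02% and a highest value of 5.80%. In library 2 the median was 1.61%, with quartiles of 0.551 and 3.05% and a highest value of 5.87%. Late precursors had medians of 0.149% and 0.150%, and early precursors 0.0478% and 0.0684%. The cells of library 2 spread further down, and 1 and 5 mature B cells had no UMI of the list, against 38 and 73 late precursors. Without barcodes over 10000 UMIs, 11 of the 12 genes were called higher than in late precursors, and without barcodes rich in neutrophil, haemoglobin or collagen genes 9 of 11. Dendritic cells and macrophages also carry class II. The 3 dendritic markers summed to 3.53 and 0 CPM in mature B cells, with 2 and 3 of them at 0, against under 1 CPM in late precursors. The 3 plasmacytoid dendritic markers summed to 3.53 and 53.4 CPM against 2.31 and 18.0 CPM. The part of either in the class II result was not tested. The 4 monocyte and macrophage markers summed to 806 and 1925 CPM in mature B cells and to 1908 and 2237 CPM in late precursors. Per cell the order differed: a UMI of them was seen in 55.2% and 41.6% of mature B cells, against 50.5% and 40.6% of late precursors. The part of macrophages in the class II result was not tested either.

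Promoters of the list are shown because its genes were higher together. RefSeq sequences of build GRCm38.p6, from 250 bases before to 50 after the start of a gene, were matched by symbol for 9 of the 12 genes, and H2-Ab1, Cd74 and Ciita had no entry. The motif searched was GATTGG on either strand, so CCAATC on the other, which holds the inverted CCAAT of the Y box described for class II promoters. It was found for 7 of the 9 genes, which are all 7 of the matched genes called higher than in late precursors, and not for Ctss and Ifi30. Of 27025 genes with an entry, 18.2% held it. It lay 49 bases before the start in H2-Aa, 60 and 35 in H2-Eb1, 91 in H2-DMb2, 62 in H2-DMb1, 44 in H2-Oa and 58 in H2-Ob. For H2-DMa it lay 199 bases before the start of the other of 2 listed starts. A match is a run of letters, not a shown binding site. The 3 promoters below are the H2-Aa window at chr17:34287774-34288073 on the minus strand, the H2-Eb1 window at chr17:34305617-34305916 on the plus strand and the H2-DMb2 window at chr17:34144999-34145298 on the plus strand, each 5′ to 3′ along its gene, with the motif in capitals.
H2-Aa: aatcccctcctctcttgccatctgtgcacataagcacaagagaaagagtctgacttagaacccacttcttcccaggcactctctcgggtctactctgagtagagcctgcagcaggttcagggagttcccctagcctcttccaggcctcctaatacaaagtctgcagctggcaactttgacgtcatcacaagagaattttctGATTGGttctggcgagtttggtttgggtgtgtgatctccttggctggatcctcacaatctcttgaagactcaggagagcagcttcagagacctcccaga
H2-Eb1: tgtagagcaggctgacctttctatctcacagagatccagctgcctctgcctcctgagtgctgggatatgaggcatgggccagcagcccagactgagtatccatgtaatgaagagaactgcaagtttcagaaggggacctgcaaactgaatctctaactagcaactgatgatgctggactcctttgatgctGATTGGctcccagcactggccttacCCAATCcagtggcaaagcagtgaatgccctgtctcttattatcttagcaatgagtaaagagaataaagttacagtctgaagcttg
H2-DMb2: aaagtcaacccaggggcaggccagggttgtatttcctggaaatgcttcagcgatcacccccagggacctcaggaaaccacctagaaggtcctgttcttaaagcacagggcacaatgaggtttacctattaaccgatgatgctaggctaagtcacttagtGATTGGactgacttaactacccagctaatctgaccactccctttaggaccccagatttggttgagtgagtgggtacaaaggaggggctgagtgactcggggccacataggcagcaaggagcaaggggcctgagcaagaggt

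Over all genes tested, 160 genes were called higher and 280 lower in mature B cells than in late precursors. The highest ratio by the library nearer to 1 belonged to Il4i1, a secreted amino acid oxidase, with 131 and 89.5 CPM against 4.62 and 3.50 CPM. Its ratios were 28.3 (10.6 to 107) and 25.5 (11.8 to 65.6), and it was seen in 14.8% and 14.7% of mature B cells against 0.873% and 0.355% of stromal cells. Among the 15 leading genes, 6 were class II genes or Ciita. The others were Il4i1, the chemoattractant receptors Cxcr5, Gpr183 and P2ry10, the transcription factor Egr3, the exchange factor Rasgef1b, the GTPase Gimap3, and the glycan enzymes B3gnt7 and Hs3st1. Hs3st1 lost its call without barcodes rich in other markers (0.59), and in library 2 1 barcode held 27.8% of its 18 UMIs. Gimap3 is a gene of lymphocytes at large: it was seen in 10.3% and 10.1% of mature B cells and in 60.4% and 52.8% of T cells.

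**Figure D3:**
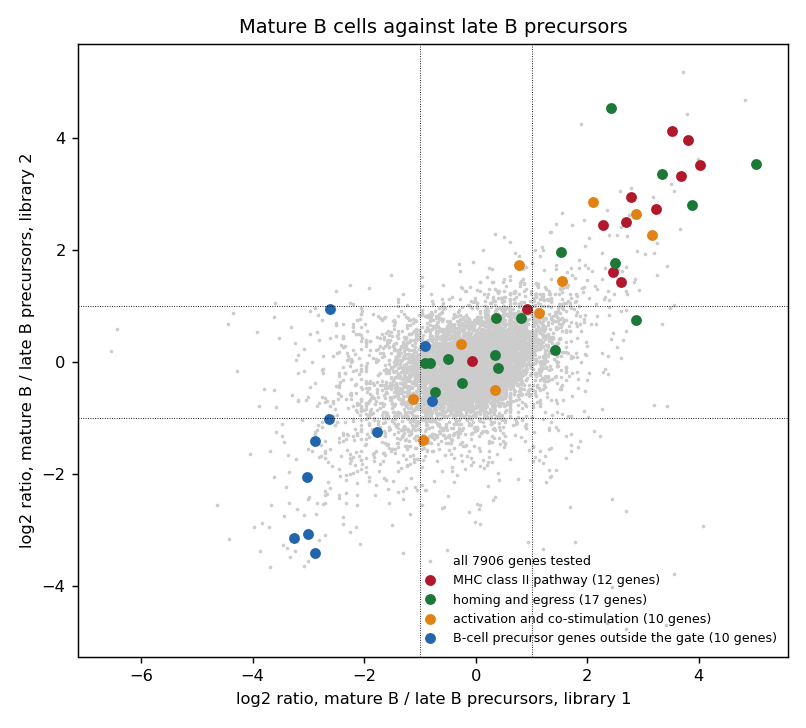
Log2 ratio of mature B cells to late B precursors in library 1 (horizontal) and library 2 (vertical) for the 7906 genes tested, in grey, with 4 gene lists in colour and dotted lines at 2-fold. MHC class II genes (red), homing genes (green) and activation genes (orange) reach into the upper right, where 160 genes lie, and precursor genes outside the rule (blue) into the lower left, where 280 lie.

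Receptors that guide B cells into lymphoid tissue were in part higher. Of 17 homing and egress genes measured, 6 were called higher than in late precursors and none lower, beside 2.02% and 3.54% of all genes tested. Their median log2 ratio was 0.81 and 0.75. Cxcr5, the receptor for the follicle chemokine Cxcl13, stood at 152 and 128 CPM in mature B cells, against 15 and 12.5 CPM in late precursors and 6.70 and 5.84 CPM in early precursors. Its ratios to late precursors were 10.1 (5.62 to 19.8) and 10.2 (6.57 to 16.5), nearly the same in the libraries. Ccr7, which leads to the T-cell zone, stood at 827 and 692 CPM against 147 and 202 CPM. It was seen in 65.9% and 67.6% of mature B cells, or 44.4% and 49.2% when thinned, against 13.9% and 22.6% of thinned late precursors and 0.531% and 0.385% of thinned stromal cells. Gpr183 (EBI2), an oxysterol receptor that places B cells at the follicle edge, stood at 113 and 58.1 CPM against 3.47 and 5.0 CPM, with ratios of 32.6 (10.7 to 162) and 11.6 (5.82 to 25.7).

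Ccr6, Itgb7 and P2ry10 were the other 3 called higher, and Itgb7, an integrin chain of gut homing, lost its call at 2000 UMIs per barcode (0.70). P2ry10, a receptor for lysophosphatidylserine, stood at 187 and 80.2 CPM against 12.7 and 11.5 CPM, and Ccr6, the receptor for Ccl20, at 49.5 and 34.9 CPM against 9.24 and 1.5 CPM. The receptors that govern residence in and exit from marrow did not pass the 2-fold limit. Cxcr4, which holds cells to Cxcl12 in marrow, stood at 493 and 404 CPM against 586 and 525 CPM, and S1pr1, which draws cells into blood, at 131 and 99.9 CPM against 103 and 92.1 CPM. Against early precursors 6 of 15 were called higher and 1 lower, beside 3.95% and 7.82% of all genes tested. Cnr2, a cannabinoid receptor, was among the 6, and Itgb7 was too rare there to be measured. The integrin chain Itga4 was the one called lower, at 90.1 and 99.9 CPM against 276 and 211 CPM.

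Genes of activation and co-stimulation split. Of 10 measured, 4 were called higher than in late precursors, beside 2.02% of all genes tested, with a median log2 ratio of 0.96 and 1.16. Cd83, which steadies class II and Cd86 at the cell surface, stood at 868 and 660 CPM in mature B cells, against 119 and 105 CPM in late precursors and 22.6 and 63.6 CPM in early precursors. Its ratios were 7.29 (5.89 to 9.11) and 6.28 (5.35 to 7.39). Cd86, a ligand of Cd28 on T cells, stood at 148 and 90.6 CPM against 34.7 and 12.5 CPM, while Cd80, the other such ligand, had 4 and 1 UMIs in the class. Nr4a1 (Nur77), an early target of receptor signals, stood at 1605 and 947 CPM against 180 and 196 CPM, and Myc at 295 and 209 CPM against 100 and 76.6 CPM. Cd69, an activation marker that holds cells in tissue, stood at 497 and 259 CPM against 389 and 365 CPM, and so lay on opposite sides of late precursors in the libraries. Egr3, outside the list, stood at 237 and 218 CPM against 20.8 and 24.0 CPM.

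Tissue digestion raises immediate early genes in many cell types, so a list of 13 of them was read beside these. Over all genes tested 2.02% were called higher than in late precursors and 3.54% lower, so few calls among 13 genes say little. Of the 13, none was called higher and Jun was called lower, at 525 and 414 CPM against 1146 and 937 CPM. These calls varied: Junb was called higher with 2 UMIs of the mature genes, without barcodes rich in other markers, by the mean of per-cell CPM and without barcodes above 10000 UMIs, Ier2 after thinning, and Jun was not called lower at 2000 UMIs per barcode (-0.84). The list's median log2 ratio was 0.24 and -0.30, while Junb had ratios of 2.29 and 1.58 and Ier2 of 2.62 and 1.37. Nr4a1 and Egr3 are also common in stromal cells, where Nr4a1 was seen in 69.3% and 54.6% and Egr3 in 28.8% and 28.1%. The part of digestion in the levels of Nr4a1, Egr3 and Myc was not tested.

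Most genes of the B-cell receptor machinery got no call. Of 16 signalling genes, 3 were called higher than in late precursors and 1 lower, beside 2.02% and 3.54% of all genes tested. Their median log2 ratio was 0.20 and 0.16. Bank1, a scaffold for Lyn, stood at 221 and 193 CPM against 33.5 and 40.5 CPM in late precursors and 9.21 and 5.84 CPM in early precursors. The kinase Fyn stood at 147 and 83.7 CPM against 49.7 and 41.5 CPM. Blnk, the adaptor of the pre-B and B-cell receptor, ran the other way, with 210 and 264 CPM against 576 and 535 CPM. Both Fyn and Blnk lay close to the limit and lost their calls in 4 of 11 alternatives, with log2 ratios down to 0.93 for Fyn and -0.74 for Blnk. The kinases Syk, Lyn, Blk and Btk were on neither side, with ratios between 0.646 and 1.45. Among 10 inhibitory receptors and phosphatases measured, Cd22 and Fcrl1 were called higher and none lower, and Cd22, a lectin that restrains the receptor, stood at 127 and 121 CPM against 54.3 and 38.5 CPM. Cd22 was not called without barcodes rich in other markers (0.83), by the mean of per-cell CPM (0.85) or without barcodes above 10000 UMIs (0.90). Of 4 receptor and co-receptor genes outside the rule, none was called in either direction.

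Transcription factors of the lineage gave 1 call against late precursors as reported here and up to 4 under alternatives. Over all genes tested, 2.02% were called higher and 3.54% lower. Of 22 measured, none was called higher, and Tcf3, the E-protein that drives early B-cell genes, was called lower at 90.1 and 60.4 CPM against 338 and 251 CPM. Pax5, which keeps B-cell identity, stood at 286 and 198 CPM against 255 and 233 CPM. Ebf1, its partner, stood at 297 and 280 CPM against 636 and 553 CPM, with ratios of 0.466 and 0.506, and so met the limit in library 1 alone. Ebf1 was called lower without barcodes rich in other markers, after thinning, by the mean of per-cell CPM and without barcodes above 10000 UMIs. The list's median log2 ratio was -0.28 and -0.24. In the list of 12 survival and BAFF system genes measured, Rel, the NF-kB subunit c-Rel, was called higher at 1188 and 696 CPM against 262 and 280 CPM, and the survival gene Bcl2l1 lower at 35.3 and 18.6 CPM against 85.5 and 52.5 CPM, a call lost at 2000 UMIs per barcode (-0.78). Tnfrsf13c, the BAFF receptor, stood at 186 and 247 CPM against 225 and 199 CPM and at 109 and 76.5 CPM in early precursors.

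Innate and cytokine genes gave 1 to 3 calls a list, where 2.02% of all genes tested were called higher than in late precursors and 3.54% lower. Of 7 measured genes of the Toll-like receptor system, Tlr7, a sensor of RNA, and Cd180, a receptor related to Tlr4, were called higher, and Tlr7 stood at 60.1 and 38.3 CPM against 16.2 and 2.00 CPM. Of 10 cytokine receptors, Il21r, the receptor for a T-helper cytokine, was called higher at 426 and 283 CPM against 110 and 85.6 CPM in late precursors and 18.4 and 31.8 CPM in early precursors. Of 10 cytokines and bone-acting ligands, Ltb, a lymphotoxin that shapes lymphoid stroma, was called higher at 272 and 171 CPM against 93.6 and 78.1 CPM, and Csf1, the macrophage growth factor, and Traf6, a signalling adaptor, were called lower. Ltb was not called without barcodes rich in other markers (0.77), Csf1 not at 2000 UMIs (-0.62) or with 3 UMIs of Cd79a and Cd79b (-0.98), and Traf6 not in 4 of 11 alternatives (down to -0.82). The pair that sets osteoclast formation was at the edge of detection in mature B cells. Tnfsf11 (RANKL) had 1 and 3 UMIs and Tnfrsf11b (osteoprotegerin), its decoy receptor, 3 and 2 UMIs over the whole class, in 0.448% and 1.26% and in 0.897% and 0.420% of cells. In stromal cells Tnfsf11 was seen in 23.2% and 23.9% of cells at full depth and in 7.17% and 6.87% when thinned, against 0 and 0.840% of thinned mature B cells.

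Genes of precursors were lower even where the rule had not used them. Of 10 such genes measured, 7 were called lower than in late precursors and none higher, beside 3.54% and 2.02% of all genes tested. Their median log2 ratio was -2.76 and -1.33. Il7r, the receptor for the growth factor of precursors, stood at 19.4 and 12.8 CPM in mature B cells, against 186 and 114 CPM in late precursors and 198 and 137 CPM in early precursors. Bcl7a, a subunit of a chromatin remodeller, stood at 38.9 and 32.5 CPM against 313 and 273 CPM, and Sox4 at 97.2 and 136 CPM against 789 and 565 CPM. Myb, a factor of blood progenitors, stood at 84.8 and 193 CPM against 628 and 511 CPM, and Cd93, a marker of immature B cells, at 38.9 and 89.5 CPM against 241 and 181 CPM. Rag2, the partner of Rag1, had 2 and 1 UMIs in the class, against 34 and 74 in late precursors. The rule itself required Rag1 to be 0. Without barcodes above 10000 UMIs, 7 of 9 measured were called lower, Myb, Sox4 and Cd93 among them. Cd93 was not called at 2000 UMIs per barcode (-0.78).

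Other genes among the 15 lowest against late precursors were Gfra1, a co-receptor for a neurotrophic factor, Uchl1, a ubiquitin hydrolase, the protease Adam19, the radial spoke gene Rsph1, and Xrcc6 (Ku70), which joins DNA ends in V(D)J recombination. Xrcc6 stood at 15.9 and 24.4 CPM against 251 and 189 CPM. The list also held C1qa, C1qb and C1qc, the complement genes of macrophages, with Ccl2 and Saa3. Beside these, summed monocyte and macrophage markers stood at 806 and 1925 CPM in mature B cells and at 1908 and 2237 CPM in late precursors. Without barcodes rich in markers of other cells, C1qa, C1qb, C1qc and Ccl2 had too few UMIs for a ratio, and the log2 ratio of Saa3 was 0. Without barcodes above 10000 UMIs it was 0 for C1qa, C1qc and Saa3 and -0.28 for C1qb, while Ccl2 was at -1.45. Among the 10 lowest against early precursors were Vpreb1b, Cdc25b and Esco2, genes of the surrogate light chain, of entry into division and of chromatid cohesion.

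Proliferation genes set mature B cells apart from early precursors. All 8 cell-cycle genes were called lower than in early precursors, where 7.82% of all genes tested were. Their median log2 ratio was -3.04 and -1.77, beside -0.02 and -0.13 for all genes tested. Birc5, 1 of 8, was called lower than in late precursors, where 3.54% of all genes tested were. Against late precursors the count was 4 of 8 with 2 UMIs of the mature genes and 4 of 7 without barcodes above 10000 UMIs. Mki67 stood at 156 and 260 CPM in mature B cells, against 546 and 435 CPM in late precursors and 1290 and 1009 CPM in early precursors. It was seen in 8.52% and 16.8% of mature B cells, or 4.04% and 8.82% when thinned, against 8.80% and 5.45% of thinned stromal cells. In library 1, 25.0% of the Mki67 UMIs of the class came from 1 barcode. Early precursors also had more UMIs per cell, the medians being 2037 and 2244 in mature B cells and 4424 and 4986.5 in early precursors. With every cell thinned to 1000 UMIs, 3 genes of the list were measured against early precursors, and Mki67 and Top2a were called lower.

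Immunoglobulin transcripts followed the stages only in part. Ighm, the mu heavy chain, stood at 2380 and 7185 CPM in mature B cells, against 7221 and 8271 CPM in late precursors. Without barcodes of at least 5 Jchain UMIs, which leaves out 0 and 1 mature B cells and 1 and 2 late precursors, it stood at 2380 and 2908 CPM against 4368 and 4674 CPM. The ratio was then 0.545 and 0.622, on the lower side in both libraries but short of 2-fold. Igkc, the kappa constant region, stood at 2557 and 2358 CPM against 2549 and 2404 CPM without those barcodes, a ratio of 1.00 and 0.981, and at 623 and 778 CPM in early precursors. With them, Igkc had been 8633 CPM in mature B cells of library 2, of which 73.2% came from the single barcode described above.

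Ighm and Ighd were both seen in 65.5% of mature B cells in library 1 and 57.6% in library 2. Ighm alone was seen in 20.2% and 37.8%, and Ighd alone in 12.1% and 3.78%. Class switching was close to the limit of detection. At least 2 UMIs of a switched isotype were seen in 1 of 223 (0.448%, 0.0114 to 2.47) and 1 of 238 (0.420%, 0.0106 to 2.32) mature B cells, against 0.986% and 0.296% of stromal cells. With 1 such cell in each library, a difference from stromal cells was not detectable at this depth. Cells with Cd79a and Cd79b UMIs and genes of neither side, which the rule left out, had 2.24% and 1.89%, and the rule asks for Ighd among its genes, which switched cells lose.

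Light chains were mixed in many mature B cells, although a B cell usually keeps either kappa or lambda. Of the mature B cells with at least 5 light-chain UMIs, 139 in library 1 and 163 in library 2, 38.8% and 35.0% had at least 90% Igkc, and 6.47% and 9.82% had at least 90% lambda (Iglc1 to Iglc4). The remaining 54.7% (46.0 to 63.1) and 55.2% (47.2 to 63.0) held both. In late precursors 17.0% of 159 and 30.8% of 416 held both, and in early precursors 5.08% of 59 and 7.25% of 69. The intervals of mature and late cells did not overlap in either library. With a limit of 80% the mixed share was 37.4% in both libraries. In a cell with under 10 light-chain UMIs, 1 UMI of the other kind is enough to miss the 90% limit. Mixed cells had a median of 3 and 4 lambda UMIs.

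Mixed cells had a median of 2095.5 and 2514 UMIs, and pure ones 2235 and 2317, so neither kind was deeper in both libraries. Without barcodes rich in neutrophil, haemoglobin or collagen genes the mixed share was 60.0% and 52.4%, and without the 5% highest Scrublet scores 53.7% and 54.8%. Iglc2, a lambda constant gene, was seen in 45.7% and 52.5% of mature B cells, or 32.7% and 40.3% when thinned. Thinned late precursors had it in 13.2% and 21.9% and thinned stromal cells in 0.228% and 0.0888%. Iglc2 stood at 709 and 742 CPM in mature B cells, against 202 and 473 CPM in late precursors and 8.37 and 12.3 CPM in early precursors. Iglc2 and Iglc3 are nearly identical in sequence and may trade reads, so their separate counts are uncertain, while the lambda sum does not depend on it. The part of read assignment in the mixed class was not tested.

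**Figure D4:**
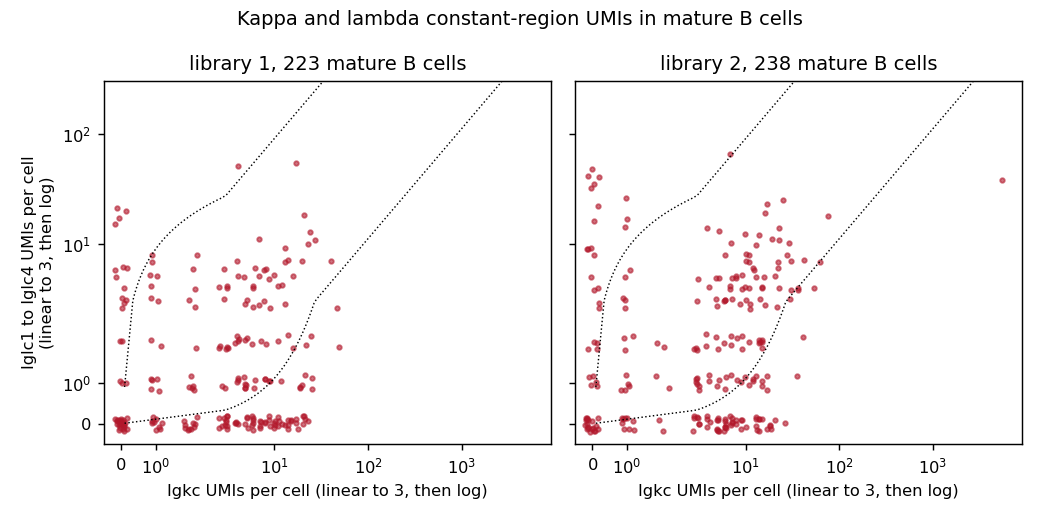
Igkc UMIs (horizontal) and summed Iglc1 to Iglc4 UMIs (vertical) in each mature B cell, on axes linear to 3 and then logarithmic, with a small jitter, for library 1 (223 cells) and library 2 (238 cells). Dotted lines mark 90% kappa and 90% lambda; 76 of 139 cells in library 1 and 90 of 163 in library 2 with at least 5 light-chain UMIs lie between them, and the point at the far right of library 2 is the barcode with 5442 Igkc UMIs.

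Variable-region genes were read only sparsely. Mature B cells held 37 UMIs of 24 Ighv genes in library 1 and 59 UMIs of 30 in library 2, with 12 genes seen in both. Igkv genes gave 22 and 65 UMIs over 13 and 17 genes, but 42 of those in library 2 were Igkv5-39 from 1 barcode. Iglv genes gave 7 and 14 UMIs. Single V genes had too few UMIs to rank.

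Lists for special subsets gave few calls against late precursors. Among genes of marginal-zone cells (6 measured), of B-1 cells (3), of germinal-centre and memory cells (2) and of age-associated cells (2), none was called higher or lower, and of the follicular list Cxcr5 and Ccr7 were, out of 4. Over all genes tested 2.02% were called higher and 3.54% lower, so no call in lists this short says little about a subset. Some calls changed in alternatives. Ahr was called higher and Zeb2 lower with 2 UMIs of the mature genes and by the mean of per-cell CPM. The same held without barcodes above 10000 UMIs, where Cd1d1 was called lower. Many genes of these lists were too rare to be measured. Cd5, a marker of B-1a cells, had 1 and 5 UMIs in the class, Tbx21, the factor of age-associated B cells, 0 and 0, and Itgax 0 and 2. Against early precursors Dtx1 and Notch2 of the marginal-zone list (4 measured) and Bhlhe41 and Ahr of the B-1 list (3) were called higher. Over all genes tested 3.95% were called higher there. Cr2 and Fcer2a were seen together in 8 and 7 cells, of 16 and 18 with Cr2. Of the plasma-cell list, 5 genes were measured and none was called, and Jchain of library 2 came to 99.9% from the single barcode. Prdm1 was called lower with 2 UMIs of the mature genes and without barcodes above 10000 UMIs.

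The libraries differed within mature B cells in several gene groups. Interferon-response genes were higher in library 1, where the list of 12 summed to 2723 CPM, against 1330 CPM in library 2, a ratio of 2.05. Of the list, Ifit1, Ifit2, Ifit3 and Isg15, picked after their values were seen, summed to 772 CPM in library 1 and to 95.3 CPM in library 2, a ratio of 8.11. Ifit3 alone stood at 249 and 13.9 CPM. The sum of the 4 stood at 961 and 103 CPM in late precursors, 433 and 79.1 CPM in early precursors, 1928 and 290 CPM in T cells and 943 and 244 CPM over all cells, so it was higher in library 1 in every class looked at. With 1 library of each kind, animals, handling and treatment cannot be told apart in it. Within the libraries, 2 of 12 interferon-response genes were called higher than in late precursors and none lower, beside 2.02% and 3.54% of all genes tested. They were Zbp1, a sensor of nucleic acids, and Ly6a, with Ly6a at 380 and 193 CPM against 105 and 60.1 CPM. Zbp1 was not called in 4 of 11 alternatives (down to 0.44).

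**Figure D5:**
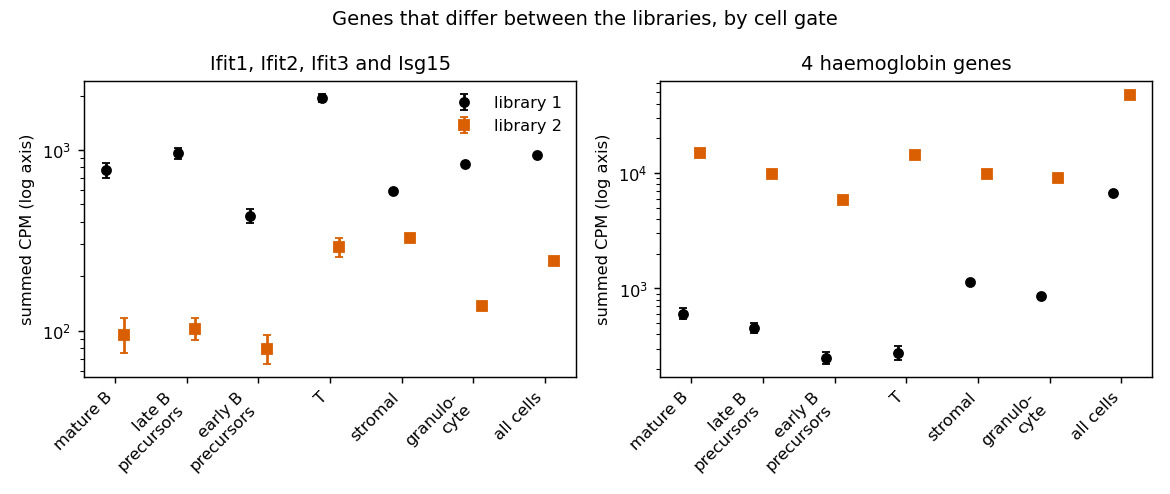
Summed CPM (logarithmic) of Ifit1, Ifit2, Ifit3 and Isg15 (left) and of the haemoglobin genes Hba-a1, Hba-a2, Hbb-bs and Hbb-bt (right) in library 1 (black) and library 2 (orange), by cell class, with exact 95% Poisson intervals. In mature B cells the interferon sum is 772 and 95.3 CPM and the haemoglobin sum 606 and 14963 CPM, and every class shows the same order of the libraries.

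Haemoglobin genes were higher in library 2, at 606 and 14963 CPM in mature B cells, and over all cells at 6729 and 47950 CPM. In mature B cells of library 2, single barcodes held 40.9% of Hba-a1, 40.3% of Hba-a2, 36.5% of Hbb-bs and 36.1% of Hbb-bt UMIs. Barcodes with at most 100 UMIs, taken as empty, had the 4 genes at 6962 and 43740.5 CPM. At least 1 haemoglobin UMI was seen in 45.3% and 95.8% of mature B cells, and the median share of a cell's UMIs was 0 and 0.192%, so in library 2 it reached nearly the whole class. Granule genes of neutrophil precursors also summed higher in library 2 in this class, with Mpo at 88.4 and 2069 CPM and Elane at 65.4 and 1505 CPM. Single barcodes of library 2 held 36.0% of these Mpo UMIs and 32.4% of these Elane UMIs. Mpo was seen in 16.6% and 21.0% of mature B cells. Late precursors went the other way, with Mpo at 1811 and 1130 CPM and Elane at 1415 and 945 CPM. In library 2, 1700 of the 1781 Mpo UMIs lay in the cells with 1 mature UMI. Rgs5, a gene of pericytes, and Jchain came to 98.5% and 99.9% from 1 barcode each in library 2.

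Markers of other cells were present at low levels in most mature B cells. The 6 neutrophil markers made up a median of 0.471% and 0.362% of a cell's UMIs and reached 22.7% and 33.7% in the richest cell. The 4 stromal markers summed to 4747 and 8498 CPM in mature B cells and to 3516 and 8473 CPM in late precursors. T-cell markers summed to 14.1 and 5.81 CPM, with Cd3g at 0, against 1966 and 2346 CPM in T cells. In all, 108 and 98 mature B cells were rich in another cell's markers: 28 and 34 by at least 20 UMIs of S100a8 and S100a9, 3 and 19 by at least 20 of haemoglobin, and 95 and 66 by at least 5 of Col1a1, Col1a2 and Col3a1. Neutrophil, erythroid and stromal markers were called in neither direction against late precursors, where 2.02% of all genes tested were called higher and 3.54% lower. Against early precursors, where 3.95% of all genes tested were called higher, 3 of 4 haemoglobin genes and Ngp, a neutrophil granule gene, were. Haemoglobin stood at 606 and 14963 CPM against 250 and 5804 CPM, the value of 14963 CPM resting in part on single barcodes. The 3 megakaryocyte markers summed to 1230 and 181 CPM in mature B cells, against 177 and 4787 CPM in late precursors, and in library 1 77.8% of the UMIs of Ppbp, a platelet chemokine, came from 1 barcode.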

How the data were processed

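FastQC 0.11.9 and the builds GRCh38 and mm10 appear, without a role, per the submitters' processing notes. No aligner, counter or gene model is given in the sources used here. The authors deposited raw UMI counts per feature and barcode, 1 matrix per library, made with the GEXSCOPE kit per the labels' protocols. Features other than mouse genes held 0.602% and 0.431% of UMIs and were left out. Barcodes were kept from 1000 UMIs with at most 20% mitochondrial, with no doublet removal. Counts were summed per cell class and library and given as CPM, with exact Poisson intervals, and shares with exact Clopper-Pearson intervals (95%), both for counting error only. Ratios used a floor of 3 UMIs. Named genes were those of 23 lists (232 genes), the 15 highest and lowest ratios to late precursors and the 10 to early ones, by the library nearer to 1. The members and lists were chosen with earlier results of these data known. With 1 pooled library per group and no group given, no test was made. Alternatives covered depth, class rules, thinning, fold, gene minimum, light-chain purity and single libraries. The code used Python 3.11.15, numpy 2.4.6, scipy 1.17.1, pandas 2.3.3 and scanpy 1.11.5. Single values of some listed genes are not reported here.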

Additional observations from a re-analysis of the deposited data

How the results depend on the processing

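No paired analysis was possible because the labels give neither library a group. The count of mature B cells was set by the rule. As a share of cells it was 1.65% and 1.43% in libraries 1 and 2 with 2000 UMIs per barcode, 1.96% and 1.66% with 3 UMIs of Cd79a and Cd79b, 1.94% and 1.36% with 2 UMIs of the mature genes, and 1.51% and 1.47% after thinning to 1000 UMIs. It was 9.30% and 5.36% without barcodes rich in markers of other cells, which removes most of the denominator, and 2.73% and 2.21% without barcodes above 10000 UMIs, an alternative chosen after seeing the data.

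Counts of called genes moved with the threshold. Against late precursors, 160 were higher in the main setting, against 101 after thinning, 416 at 1.5-fold, 57 at 3-fold, 97 with a minimum of 50 UMIs, 332 with a minimum of 1 UMI, 585 in library 1 alone and 286 in library 2 alone. The 280 lower genes became 452 with 2 UMIs of the mature genes, 174 after thinning, 679 at 1.5-fold, 103 at 3-fold, 422 by the mean of per-cell CPM, 148 with a minimum of 50 UMIs, 986 in library 1 alone and 582 in library 2 alone. The genes called also changed. Of the 160 higher and 280 lower, 63 and 93 were called again after thinning, where 3858 genes were tested. Without barcodes rich in other markers 86 and 114 were, with 4413 genes tested. Against early precursors, the 331 higher genes became 141 after thinning, 777 at 1.5-fold, 123 at 3-fold, 213 with 50 UMIs, 705 with 1 UMI, 921 in library 1 alone and 548 in library 2 alone. The 656 lower genes became 226 without barcodes rich in other markers, 145 after thinning, 1286 at 1.5-fold, 284 at 3-fold, 410 with 50 UMIs, 1314 in library 1 alone and 1068 in library 2 alone. Of the 331 and 656, 94 and 89 were called again after thinning, where 2355 genes were tested. Without barcodes rich in other markers 152 and 145 were, with 3682 genes tested. The split of higher and lower calls against early precursors, 331 and 656 as reported, was 251 and 226 without barcodes rich in other markers, 141 and 145 after thinning and 705 and 764 with a minimum of 1 UMI, while against late precursors, 160 and 280 as reported, it was 332 and 368 with that minimum. A minimum of 1 UMI also moved the median log2 ratio of all genes to 0.23 and 0.14 against late precursors and to 0.34 and 0.10 against early ones. The causes were not tested.

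The mixed light-chain share was 37.4% in each library at 80% purity. With at least 10 light-chain UMIs it was 45.2% in library 1 and 58.5% in library 2, so the libraries moved in opposite directions. Switched isotypes came to 0% in both libraries without barcodes rich in other markers and after thinning, and to 0% in library 1 at 5 UMIs. Of 12 class II genes, 7 of 9 measured were still called higher than in late precursors after thinning. Depth limits the class: genes with under 20 UMIs over both classes in either library got no call.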
